A study of Mus musculus with 200 samples.

Results

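9 genes of the neural crest and its pigment cell lineage were followed through the expression, allele and genotype tables of a cross between 2 mouse strains: the ligand gene *Edn3*, the receptor genes *Ednrb* and *Kit*, the transcription factor genes *Sox10*, *Foxd3* and *Mitf*, and the pigment enzyme genes *Dct*, *Tyrp1* and *Tyr*. They were chosen by symbol, and each of the 9 was found among the 22033 genes of the tables. Whole single embryos had been collected at E11.5 and profiled with 3SEQ, which sequences the 3′ ends of mRNA. F1 embryos came from B6 (C57BL/6J) mothers and Cast (*castaneus*) fathers (B6 × Cast, 8 embryos) or from Cast mothers and B6 fathers (Cast × B6, 8 embryos), and every autosomal gene is heterozygous in them. N2 embryos came from a backcross of F1 animals to B6, with 89 embryos in 17 litters of B6 mothers and 65 in 12 litters of F1 mothers, so that each is B6/B6 or B6/Cast at any gene. No embryo was treated, and the embryos differed in stage, which the labels give as somite number, from 41 to 63 in F1 and from 42 to 57 in N2. A whole embryo mixes all tissues, so fewer cells of a type and less RNA per cell cannot be told apart.

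The neural crest leaves the dorsal neural tube and gives rise to peripheral glia and neurons, to the enteric nervous system and to melanocytes. FOXD3 and SOX10 act in early crest cells, SOX10 turns on *Mitf* together with PAX3, and MITF, the central factor of melanocytes, drives *Dct*, *Tyrp1* and *Tyr*, whose enzymes make melanin. Crest cells that carry the endothelin receptor EDNRB respond to endothelin 3, the product of *Edn3*, and melanoblasts need the receptor tyrosine kinase KIT. None of these genes marks only one cell type in a whole embryo, since *Dct*, *Mitf* and *Tyr* are also used by the retinal pigment epithelium, *Sox10* by the otic vesicle, and *Kit* by germ cells and blood progenitors.

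In mm9, *Edn3* lies on chromosome 2 (174586120-174609543, plus strand), *Ednrb* and *Dct* lie on chromosome 14 (104213842-104243390 and 118412014-118451468, both minus strand), and *Kit* lies on chromosome 5 (75970941-76052747, plus strand). *Sox10* lies on chromosome 15 (78985343-78994920, minus strand), *Mitf* on chromosome 6 (97757052-97971352, plus strand) and *Tyr* on chromosome 7 (94574910-94641943, minus strand). *Foxd3* and *Tyrp1* share chromosome 4 (99322990-99325362 and 80480027-80497623, both plus strand). All 9 are protein coding in the annotation, and the reads counted on each gene fell on its exons.

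Between 15703888 and 38234229 reads were counted on genes in each of the F1 embryos, and between 245220 and 5370322 in each of those of N2. The N2 libraries fell into 2 sets by sequencing lane. This division was drawn from the data, and the fits by lane set were not among the planned ones. Log2 profiles of the median levels in the 9 lanes A to I (98 embryos) correlated with one another at r = 0.929 to 0.989 over 13145 genes, those in the 5 lanes J to N (56 embryos) at 0.871 to 0.992, and pairs across the 2 sets at 0.779 to 0.861. In lanes J to N, 35.9% of the genes had a mean more than 2-fold higher than in lanes A to I and 2.63% a mean more than 2-fold lower, and both sets held embryos of both kinds of mother. N2 results are therefore given with and without lanes J to N.

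The members did not follow this division alike (plot of levels by lane). *Ednrb* averaged 1.68 ± 1.12 RPM (read count scaled to the embryo's reads on genes; SD, n = 98) in lanes A to I and 20.4 ± 14.1 RPM (n = 56) in lanes J to N, a ratio of 12.1. Its pooled level was 1.15 to 2.38 RPM in single lanes of the first set and 13.0 to 25.4 in those of the second, without overlap. *Foxd3* averaged 0.697 ± 0.588 RPM in the first set and 5.13 ± 4.22 in the second (ratio 7.36), *Kit* 0.931 ± 0.783 and 5.23 ± 3.63 RPM (ratio 5.61), and *Mitf* 0.149 ± 0.258 and 2.29 ± 2.19 RPM (ratio 15.4). Pooled levels of single lanes did not overlap between the sets for these 3 genes either, nor for *Edn3* (7.83 to 14.7 and 17.3 to 23.3 RPM). Single embryos of the 2 sets overlapped for each of these 3 genes. They did so for *Ednrb* too, with a highest value of 6.14 RPM in lanes A to I and a lowest of 2.05 in lanes J to N. How many of all genes showed no overlap between lanes was not counted. *Sox10* showed no such step, with 25.9 ± 6.80 RPM in lanes A to I and 24.3 ± 10.0 in lanes J to N (ratio 0.939). *Edn3* (ratio 1.62), *Dct* (2.03) and *Tyr* (1.88) lay between, and *Tyrp1* had 4 reads in 98 embryos of the first set against 44 reads in 56 embryos of the second. Among all 13145 genes the log2 difference between the sets placed *Ednrb* at the 95.8th percentile and *Sox10* at the 31.7th.

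**Figure D1:**
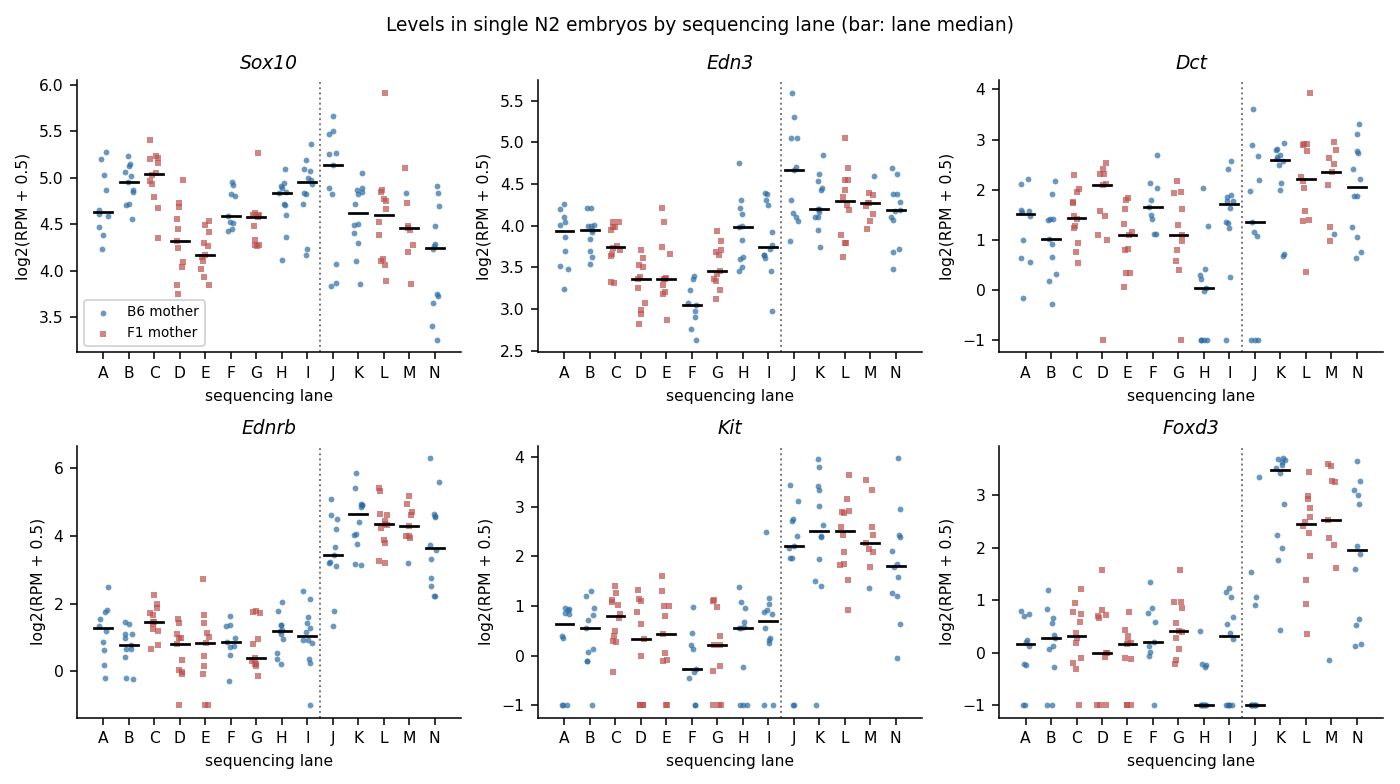
Expression of 6 members in 154 N2 embryos, as log2(RPM + 0.5) on the vertical axis against the sequencing lane, with 1 point per embryo (blue circles, B6 mothers; red squares, F1 mothers), a bar at each lane median and a dotted line between lanes I and J. *Ednrb*, *Kit* and *Foxd3* step up to the right of the line in most embryos, with *Ednrb* at 1.68 RPM on average before it and 20.4 RPM after it, while *Sox10* is at 25.9 and 24.3 RPM.

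The step stood between littermates as well. Embryos of 4 litters had been sequenced in both sets, and the pooled *Ednrb* level of the littermates in lanes J to N was 6.57 to 18.2 times that of those in lanes A to I, higher in all 4 litters and without overlap of single embryos in 3. One of these, litter 10 of an F1 mother, held 1 embryo in lanes A to I and 2 in lanes J to N, and *Sox10* did not overlap there either. How many of all genes differed in this way between littermates was not counted. In litter 13 of a B6 mother, *Ednrb* was at 0.802 to 3.64 RPM in 4 embryos of lane H and at 28.5 and 29.8 RPM in 2 embryos of lane K. For *Sox10* the same ratio was 0.787 to 1.41 and was above 1 in 1 of the 4 litters. Read counts overlapped between the sets, with a median of 2483563 in lanes A to I (814478 to 5370322) and of 1646224 in lanes J to N (245220 to 5134607), and what else set the lanes apart was not tested.

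F1 embryos, all sequenced more deeply than any N2 embryo, gave the levels of the ligand and receptor genes with less counting error. *Edn3* was at 15.5 ± 1.91 RPM (SD, n = 16), with a lowest value of 12.5, a median of 15.4 and a highest of 19.6. *Ednrb* was at 3.88 ± 0.996 RPM (2.92 to 6.33) and *Kit* at 6.01 ± 1.24 RPM (4.30 to 7.99). The F1 mean of *Ednrb* lay between its means in the 2 sets of N2 lanes, and that of *Kit* lay above both. 3SEQ reads are not proportional to transcript length, and levels are compared only within a gene.

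Of the transcription factor genes, *Sox10* was at 31.5 ± 4.09 RPM in F1 (22.6 to 40.2), and even the shallowest N2 embryos held reads of it, since none of the 154 was without. *Foxd3* was at 1.99 ± 0.501 RPM in F1 (1.24 to 2.79) and had no read in 31 of 154 N2 embryos. *Mitf* was at 0.340 ± 0.139 RPM in F1 (0.0630 to 0.568), on 154 reads in 16 embryos, and had no read in 81 N2 embryos. At the median N2 depth of 2297774 reads, a count of 0 allows up to 1.31 RPM (3 reads; counting error only), which is above the F1 level of *Mitf*.

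Of the pigment enzyme genes, *Dct*, whose product is dopachrome tautomerase and which is the earliest of the 3 to be used by melanoblasts, was at 4.46 ± 0.986 RPM in F1 (2.93 to 6.68) and had no read in 10 N2 embryos. *Tyr*, the gene of tyrosinase, was at 0.319 ± 0.128 RPM (0.157 to 0.592). *Tyrp1* was at 0.0553 ± 0.0602 RPM on 27 reads, with no read in 6 of 16 F1 and 128 of 154 N2 embryos. *Mitf*, *Tyr* and *Tyrp1* stayed under the mean of 1 RPM that the tests across genes required, and 6 of the 9 members passed it in N2 and in F1. *Kit* and *Foxd3* passed in N2 through lanes J to N, being under 1 RPM on average in lanes A to I.

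The first comparison asked whether a member changed with somite number in N2 embryos of 1 lane and 1 kind of mother. In 147 embryos with a somite number, none of the 6 members passed edgeR's quasi-likelihood test (Benjamini-Hochberg adjusted p under 0.05), whereas 8.99% of 13145 genes did, and 1 of the 6 had an unadjusted p under 0.05, against 21.03% of the genes. DESeq2 called none of the 6 either. The smallest p belonged to *Sox10*, at a log2 change of −0.035 ± 0.016 per somite (SE, adjusted p = 0.188 by edgeR). Its slope was −0.038 ± 0.015 in lanes A to I alone (adjusted p = 0.0967) and −0.028 ± 0.042 in lanes J to N alone (adjusted p = 0.901), where 9.07% and 0.753% of the genes were called and again none of the 6 members. Without the lane term the order was the opposite, since the median level was 22.5 RPM in 39 embryos of up to 46 somites, 23.8 in 40 embryos of 47 to 49 and 25.96 in 68 embryos of 50 or more, and no direction can be given for *Sox10*.

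The slopes of the other 5 members had intervals on both sides of 0 (plot of slopes by lane set). For *Edn3* the slope was 0.0090 ± 0.014 per somite, with a 95% interval from −0.019 to 0.037. The interval was from −0.064 to 0.081 for *Ednrb* and from −0.11 to 0.061 for *Kit*. It was from −0.060 to 0.11 for *Foxd3*, whose slope was 0.10 ± 0.051 in lanes A to I and −0.063 ± 0.070 in lanes J to N. For *Dct* it was from −0.028 to 0.11. The slope of *Dct* differed between embryos of F1 and B6 mothers by −0.17 ± 0.075 per somite with an unadjusted p of 0.0223, but its adjusted p was 0.810 (edgeR), and none of the 6 members passed this interaction test, which called 0.00761% of the genes. 1 of the 6 had an unadjusted p under 0.05 there, against 6.05% of the genes.

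**Figure D2:**
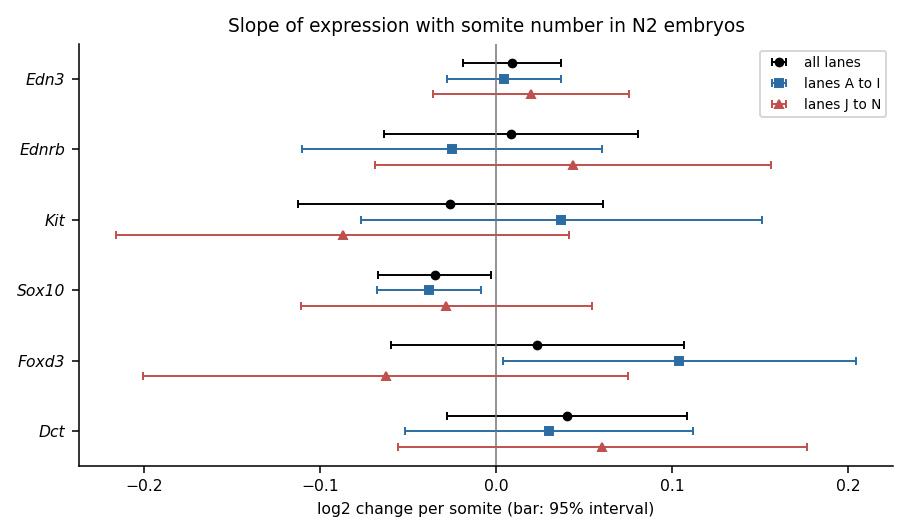
Log2 change per somite (horizontal axis) for the 6 tested members in N2 embryos, with bars for the 95% interval, for all lanes (black), lanes A to I (blue) and lanes J to N (red). The *Sox10* slope is below 0 in all 3 fits (−0.035, −0.038 and −0.028), and those of *Kit*, *Foxd3* and *Ednrb* change sign between the 2 sets of lanes.

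In F1, stage differed between litters, so stage and litter cannot be told apart. By their titles, the embryos of Cast × B6 litter 2 were sequenced in another pair of runs than those of all other litters. Sequencing run therefore cannot be told apart from stage or litter in the Cast × B6 contrast. Cast × B6 litter 1 held 4 embryos (41 to 43 somites where counted) and litter 2 held 4 (46 to 48), while B6 × Cast litter 5 held 5 (48 to 50) and litter 3 held 3 (58 and 63 in those counted). *Sox10* was at 29.2, 32.4, 35.5 and 32.7 RPM in Cast × B6 litter 1 and at 27.8, 34.5, 28.2 and 22.6 RPM in litter 2. The older litter held the 3 lowest of these 8 values, and the litters overlapped. In B6 × Cast, *Sox10* was at 30.1, 31.5, 33.9, 40.2 and 35.5 RPM in litter 5 and at 32.8, 28.4 and 29.4 RPM in litter 3, again with overlap.

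By edgeR the difference of the older from the younger litter in *Sox10* was −0.31 ± 0.12 (log2, SE; adjusted p = 0.0588) in Cast × B6 and −0.34 ± 0.13 (adjusted p = 0.0755) in B6 × Cast, so that neither passed the threshold. None of the 6 members passed in either cross, against 32.4% of 13122 genes in Cast × B6 and 16% in B6 × Cast. In each, 2 of 6 had an unadjusted p under 0.05, against 43.0% of the genes in Cast × B6 and 31.3% in B6 × Cast. DESeq2 called none in either. Leaving out 1 embryo changed this for *Sox10*, which was called in Cast × B6 without embryo 6 of B6 × Cast litter 5 (adjusted p = 0.0359), in both crosses without embryo 3 of that litter (0.0462 and 0.0444), and in Cast × B6 without embryo 3 of Cast × B6 litter 2 (−0.40, adjusted p = 0.0253).

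*Ednrb* was at 2.92, 3.18, 2.93 and 2.98 RPM in Cast × B6 litter 1 and at 3.71, 6.33, 4.10 and 3.18 RPM in litter 2, and each value of the older litter lay above each of the younger. The nearest values were 3.176 RPM (120 reads) in litter 1 and 3.182 RPM (61 reads) in litter 2, a gap within counting error. The difference between these litters was 0.40 ± 0.16 (log2; adjusted p = 0.0718 by edgeR). It passed when total reads replaced the TMM scaling (0.53, adjusted p = 0.0442) and when embryo 6 of litter 2 was left out (0.50, adjusted p = 0.0386). In B6 × Cast, *Ednrb* was at 4.49, 3.76, 3.37, 3.19 and 3.46 RPM in litter 5 and at 4.54, 4.28 and 5.70 RPM in litter 3 (0.25 ± 0.17, adjusted p = 0.333). *Dct* was at 4.05, 4.79, 2.93, 3.25 and 4.42 RPM in litter 5 and at 5.24, 6.68 and 5.27 RPM in the oldest litter, litter 3, with no overlap (0.39 ± 0.17, adjusted p = 0.134). In Cast × B6 the *Dct* difference had the other sign (−0.25 ± 0.17, adjusted p = 0.293). How many of all genes showed no overlap between the litters of a cross was not counted.

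**Figure D3:**
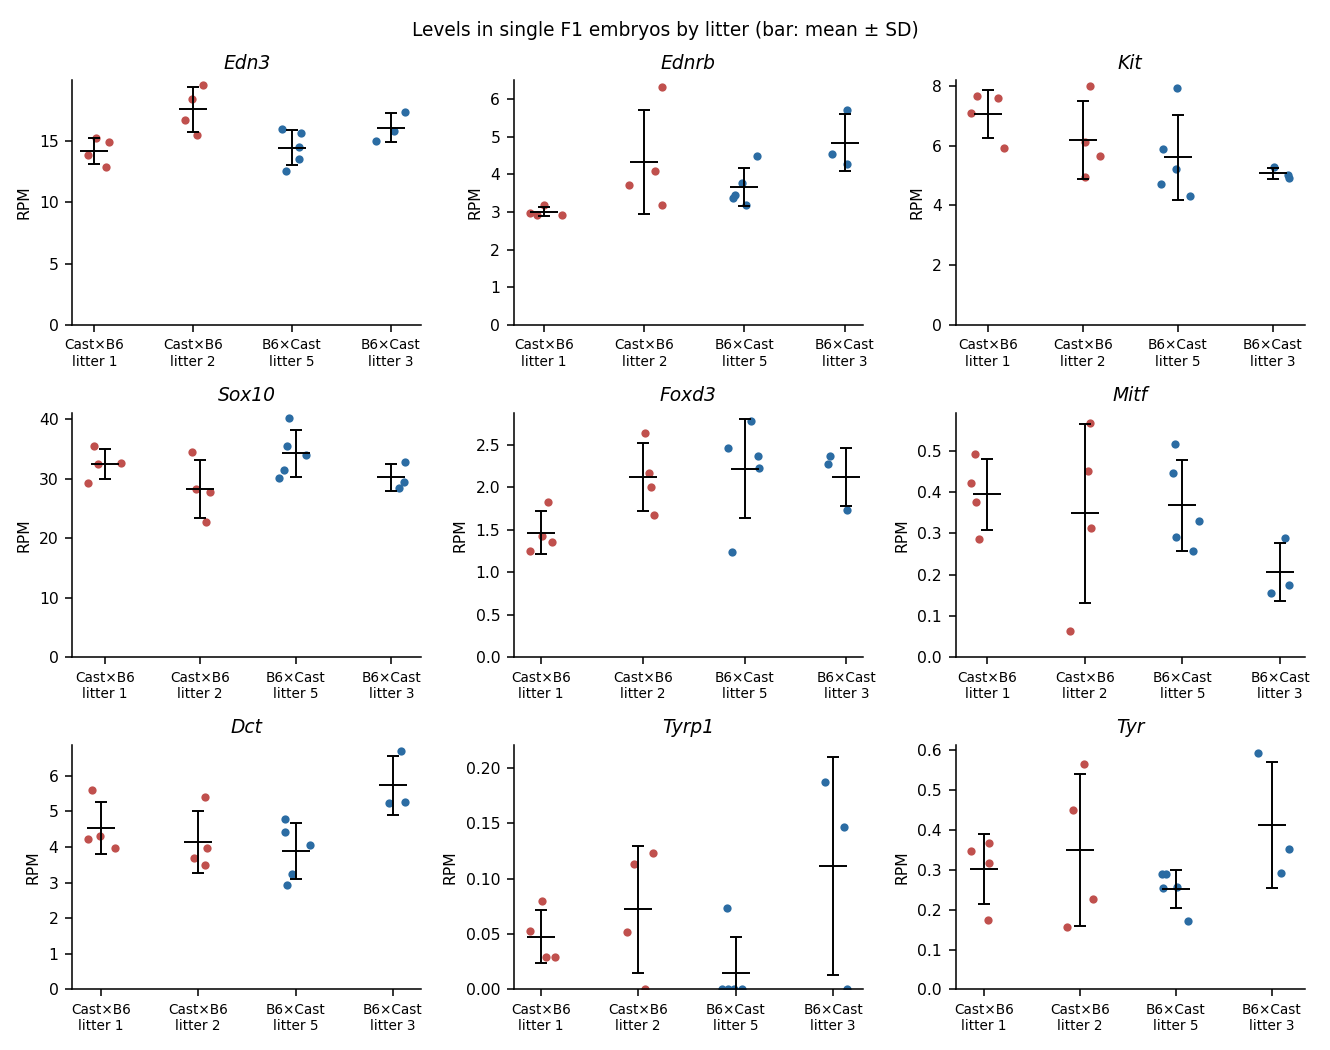
RPM (vertical axis, from 0) of the 9 members in the 16 F1 embryos, by litter from the lowest to the highest somite numbers, with 1 point per embryo and bars of mean ± SD (red, Cast × B6; blue, B6 × Cast). *Ednrb* of Cast × B6 litter 2 lies above litter 1 in every embryo (nearest values 3.182 and 3.176 RPM), and *Dct* is highest in B6 × Cast litter 3, at 5.73 ± 0.825 RPM.

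The litters nearest in stage also set the 2 crosses side by side. B6 × Cast litter 5 exceeded Cast × B6 litter 2 in *Sox10* by 0.34 ± 0.12 (log2; adjusted p = 0.0595 by edgeR, 0.0496 by DESeq2), with means of 34.3 ± 3.94 RPM (n = 5) and 28.3 ± 4.88 RPM (n = 4). edgeR called none of the 6 members and 14.1% of the genes in this contrast, with 1 of 6 at an unadjusted p under 0.05 (29.6% of the genes). DESeq2 called 1 of 6 and 16% of the genes. *Sox10* passed edgeR's test without embryo 3 of Cast × B6 litter 2 (0.41, adjusted p = 0.0458) and without embryo 3 of B6 × Cast litter 5 (0.39, adjusted p = 0.0362). These 2 litters also serve in the contrasts by stage, which are therefore not independent of this one. Their pairs of sequencing runs differed too, so cross, litter and run cannot be told apart.

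The other genes of these pathways gave the setting for the members in N2, from lists that were drawn up with earlier results of these data known. Over all genes 5.26% rose with somite number and 3.74% fell. Of 22 tested early crest genes, 1 rose and 2 fell, and the median slope of the list was −0.014 per somite against −0.0032 over all genes. *Msx1*, a homeobox gene of the early crest, fell by 0.045 ± 0.011 per somite (adjusted p = 0.00114) and *Mycn* fell by 0.12 ± 0.032 (adjusted p = 0.00741), while *Rxrg* rose by 0.067 ± 0.020 (adjusted p = 0.0148). Of 15 genes of glial and Schwann cell precursors, 2 rose and 1 fell (median 0.015). *S100b*, a calcium-binding protein gene of glia, rose by 0.31 ± 0.031 per somite (adjusted p = 8.7e-15), and *Sox2*, a transcription factor gene of progenitor cells, fell by 0.078 ± 0.023 (adjusted p = 0.0143). The rise of *S100b* was 0.28 in lanes A to I and 0.38 in lanes J to N, and it passed in both and with litter by lane as a fixed factor (adjusted p = 0.00210 by edgeR). With that factor *Msx1* (adjusted p = 0.453), *Mycn* (0.534), *Rxrg* (0.567) and *Sox2* (0.545) were no longer called, while with litter as a random block (limma voom) the adjusted p was 0.0106, 0.0261, 0.0390 and 0.0153. *Mycn* also missed the threshold in lanes A to I alone (adjusted p = 0.0528).

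Of 13 tested genes of pigment cell differentiation and of the melanosome, 0 rose and 1 fell (median −0.040). The one called was *Tbx2*, a T-box factor gene also used in many other tissues, which fell by 0.045 ± 0.013 per somite (adjusted p = 0.0133). *Rab38*, a small GTPase gene of melanosome transport, had a slope of −0.15 ± 0.054 (adjusted p = 0.0653). Of 21 partners of KIT and endothelin signalling, 0 rose and 1 fell (median −0.00034). This was *Ece1*, the gene of the enzyme that cuts endothelin precursors, which fell by 0.062 ± 0.018 (adjusted p = 0.0102), and *Lyn* had a slope of −0.070 ± 0.030 (adjusted p = 0.133). Neither call held when litter was modelled, since with litter by lane as a fixed factor the adjusted p was 0.296 for *Tbx2* and 0.282 for *Ece1* (edgeR), and with litter as a random block 0.0784 and 0.0985 (limma voom), so that 0 genes of these 2 lists were called in either fit.

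Lists of markers of the other tissues that use these genes had a summed level above 0 in all embryos. Such a sum does not show that each gene of a list was read, and 4 of 17 listed germ cell genes reached 1 RPM in either set of N2 lanes. In N2, 2 of 12 tested genes of the retinal pigment epithelium and eye cup rose with somite number, 1 of 17 enteric and autonomic neuron genes rose, 1 of 12 otic vesicle genes fell, and 0 of 4 germ cell genes were called (edgeR). Of 11 blood progenitor and mast cell genes 2 rose, of 12 endothelial genes 0 were called, and of 13 neural progenitor genes 2 fell. *Sox2* was the otic gene and 1 of the neural progenitor genes that fell, as it was on the glial list. With litter by lane as a fixed factor, 1 retinal, 1 enteric and 1 neural progenitor gene were called, and 0 otic and 0 blood progenitor genes (edgeR). The summed level of the retinal list ranged from 191 to 851 RPM in lanes A to I and from 255 to 586 in lanes J to N, that of the otic list from 68.3 to 113 and from 97.9 to 318, that of the germ cell list from 33.5 to 92.7 and from 41.1 to 98.5, and that of the blood progenitor list from 186 to 537 and from 180 to 470. The summed glial list ranged from 164 to 392 RPM in lanes A to I and from 320 to 1233 in lanes J to N, and the neural progenitor list from 342 to 981 and from 520 to 2604. Like the otic list, both reached higher levels in the lanes where *Ednrb* and *Foxd3* were higher. So did the early crest (highest sums 1418 and 2874 RPM), pigment cell (227 and 440), signalling partner (1333 and 1683) and enteric lists (789 and 1024). The highest sums of the germ cell and endothelial lists (713 and 729) differed little, and those of the retinal and blood progenitor lists were not higher. Median sums ran otherwise for 2 of these lists. The endothelial median was 617 RPM in lanes A to I and 522 in lanes J to N, and the blood progenitor median 285 and 354. The medians were 51.6 and 55.5 RPM for the germ cell list and 387 and 381 for the retinal list. In those lanes 35.9% of all genes were more than 2-fold higher. The part of tissue makeup in the members' levels was not tested.

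Mother's genotype gave no call by the Mann-Whitney U test with Bonferroni correction (adjusted p under 0.01), with 0 of 6 members against 3.89% of 12722 autosomal genes, and 2 of 6 at an unadjusted p under 0.05 (35.8% of the genes). These 2 were *Edn3*, lower in embryos of F1 mothers by 0.27 (log2 of the ratio of mean RPM + 0.5, unadjusted p = 0.00312), and *Sox10*, lower by 0.16 (unadjusted p = 0.00664). By the Benjamini-Hochberg method both passed at adjusted p = 0.0158 and 0.0287, a threshold that 26.5% of the genes passed. A fit by edgeR with somite number gave −0.30 for *Edn3* (adjusted p = 0.00111). Only lane M of 14 lanes held embryos of both kinds of mother, so mother and lane can scarcely be told apart. No gene was called over means of litters or of lanes, but none could have been. With so few lanes, even full separation gives no exact rank-test p small enough for the Bonferroni threshold. Over litter means the rank test used a normal approximation, which has the same limit here, and an exact test was not run.

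Each N2 embryo is B6/B6 or B6/Cast at a gene, and the next comparison asked whether a member's level followed the genotype at its own locus, which is the test for a local eQTL. Between 41.6% (*Tyr*) and 54.2% (*Kit*) of called embryos were heterozygous. By the rank-sum test on levels freed of lane, mother and somite number, 2 of 6 members were called, against 23% of 12722 genes. Both, *Sox10* and *Edn3*, were higher in heterozygous embryos, as were 12% of the genes.

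*Sox10* had a lowest value of 9.03, a median of 28.1 and a highest of 59.99 RPM in 71 heterozygous embryos, and of 10.1, 21.6 and 42.1 RPM in 76 B6/B6 embryos. The groups overlapped over most of their range, and heterozygous embryos were higher by 0.26 (log2, adjusted p = 0.000127). A linear model gave 0.28 ± 0.064 (SE). The difference was 0.16 in lanes A to I (adjusted p = 0.0453) and 0.45 in lanes J to N (adjusted p = 0.0139), fits that called 22.2% and 4.6% of the genes. The linear model gave 0.16 ± 0.062 in lanes A to I, which did not pass (adjusted p = 0.0532), and 0.51 ± 0.14 in lanes J to N (adjusted p = 0.0168). In lanes J to N the medians were 28.2 RPM in 29 heterozygous and 18.3 in 26 B6/B6 embryos (plot by genotype), and in lanes A to I they were 26.7 and 23.9 RPM. Among embryos of F1 mothers in lanes A to I the means were 23.2 ± 6.77 (n = 20) and 23.3 ± 7.86 RPM (n = 23), and among those of B6 mothers in the same lanes 30.3 ± 5.22 (n = 22) and 26.2 ± 5.57 RPM (n = 27).

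*Edn3* had a lowest value of 5.69, a median of 16.0 and a highest of 47.9 RPM in 77 heterozygous embryos and of 6.54, 12.1 and 38.9 RPM in 70 B6/B6 embryos. The difference was 0.19 (log2, adjusted p = 0.00244), with 0.21 ± 0.058 in the linear model. It was 0.19 in lanes A to I (adjusted p = 0.0197) and 0.21 in lanes J to N (adjusted p = 0.273). With 15 principal components also removed it was 0.097 (adjusted p = 0.0718), whereas *Sox10* stayed past the threshold at 0.14 (adjusted p = 0.00121). Within embryos of B6 mothers *Edn3* differed by 0.28 (adjusted p = 0.00376) and within those of F1 mothers by 0.075 (adjusted p = 0.539). The interaction of genotype and mother did not pass (−0.20 ± 0.12, adjusted p = 0.996), nor did it for any of the 6 members, with 0.0237% of genes called and none of the 6 at an unadjusted p under 0.05 (5.09% of the genes).

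**Figure D4:**
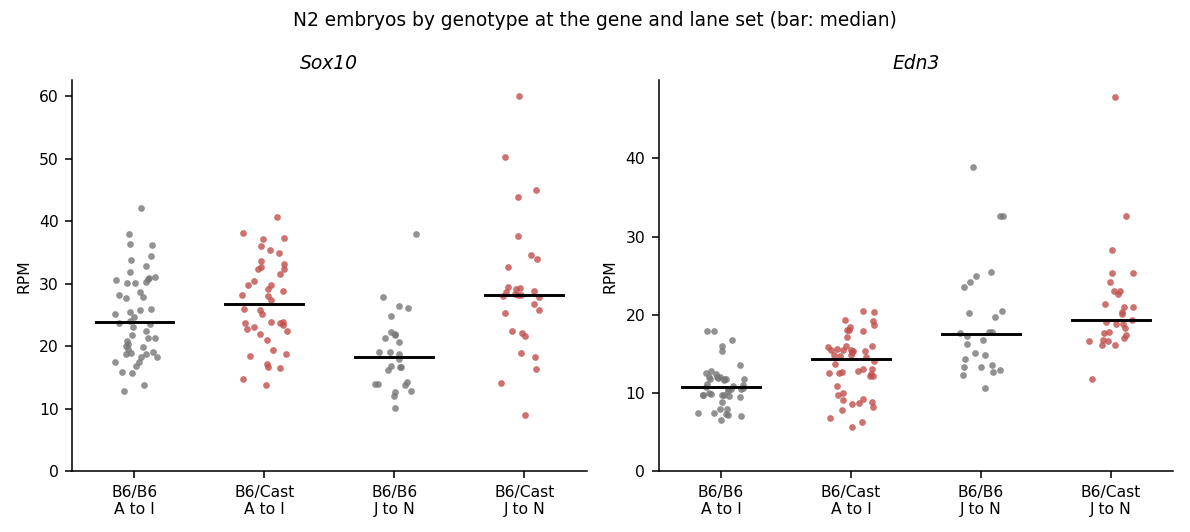
RPM (vertical axis, from 0) of *Sox10* and *Edn3* in N2 embryos with a somite number, split by genotype at the gene (grey, B6/B6; red, B6/Cast) and by set of lanes, with 1 point per embryo and a bar at the median. Heterozygous medians are higher in all 4 pairs, with the widest gap for *Sox10* in lanes J to N (28.2 against 18.3 RPM), and the points of the 2 genotypes overlap throughout.

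The remaining members gave small differences with wide errors. *Ednrb* differed by 0.0097 ± 0.15, *Kit* by 0.023 ± 0.16, *Foxd3* by 0.018 ± 0.16 and *Dct* by 0.0073 ± 0.15 (log2, linear model), and an effect of the size measured for *Sox10* was within each interval, the widest of which ran from −0.29 to 0.34 (*Kit*). A genotype marks a block and not a gene: *Ednrb* and *Dct* had the same genotype in 98.6% of 148 embryos and *Foxd3* and *Tyrp1* in 91.5% of 153. The genotype at *Sox10* was linked to the level of 49 genes of chromosome 15 and that at *Edn3* to 21 genes of chromosome 2 (3.71% of same-chromosome pairs over all 9 loci were called). In 48 pairs of a member's locus and another member's level, 0 were called, with 1 at an unadjusted p under 0.05, and 0.0188% of pairs on other chromosomes were called over all genes.

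Votes, the deposited counts of reads assigned to B6 or Cast by the SNPs they cover, gave the B6 allele fraction (BAF) within heterozygous embryos. *Ednrb* had no vote in any embryo of either generation, although it had 1741 reads in F1. *Sox10* had 3358 votes in F1, with a pooled BAF of 0.523 (95% exact binomial interval 0.506 to 0.540, counting error only), and 890 in heterozygous N2 embryos with a BAF of 0.487 (0.453 to 0.520). *Kit* was at 0.491 (0.461 to 0.521) on 1083 votes in F1 and *Foxd3* at 0.560 (0.479 to 0.638) on 159. *Dct* was at 0.517 (0.384 to 0.648) on 60 votes in F1 and at 0.356 (0.256 to 0.466) on 87 votes in N2, where lanes A to I gave 0.524 and lanes J to N 0.303. *Mitf*, *Tyrp1* and *Tyr* had 19, 18 and 22.99 votes over all F1 embryos, too few for a test.

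None of the 3 members with 20 votes in each cross and generation, *Sox10*, *Edn3* and *Dct*, passed the test for allele-specific expression (ASE; the study's paired test of B6 against Cast votes over embryos, Bonferroni adjusted p under 0.01, pooled BAF outside 0.45 to 0.55), against 18.9% of 9084 genes, with 2 of 3 at an unadjusted p under 0.05 (57.7% of the genes). The pooled BAF over F1 and N2 was 0.515 for *Sox10*, 0.439 for *Edn3* and 0.422 for *Dct*. If the B6 allele of a heterozygote gave as much as each B6 allele of a B6/B6 embryo, the BAF of *Sox10* in N2 would correspond to a heterozygous embryo higher by 0.039 (log2), beside the 0.26 measured between genotypes. The lane sets differed here as well, since the BAF was 0.506 (0.468 to 0.543) in lanes A to I, which would correspond to −0.016 beside the 0.16 measured, and 0.417 (0.346 to 0.490) in lanes J to N, which would correspond to 0.26 beside the 0.45 measured. The gap between these values was not tested.

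*Edn3* was the member whose BAF differed with the direction of the cross. In F1 embryos of B6 mothers it had a lowest value of 0.433, a median of 0.474 and a highest of 0.560, and in those of Cast mothers 0.310, 0.375 and 0.427, so that the 8 embryos of each cross did not overlap (plot of BAF). The means were 0.478 ± 0.039 and 0.373 ± 0.035 (SD, n = 8 each). Litters of the same cross were alike, at 0.475 and 0.479 for B6 × Cast and 0.375 and 0.372 for Cast × B6, although they differed in stage. An exact Mann-Whitney test per embryo gave p = 0.000155, the smallest that 8 against 8 embryos can give, and an adjusted p of 0.0206. It called 1 of the 4 members tested and 1.33% of 10859 genes. By the pooled binomial test for imprinting, which requires the higher allele to change with the cross, 0 of 5 members and 1.36% of genes were called, and the pooled *Edn3* BAF of 0.479 (0.457 to 0.501) and 0.372 (0.352 to 0.393) was under 0.5 in both crosses.

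The N2 embryos, which are other animals in other lanes, allowed the same comparison, which was added after the F1 values had been seen. In heterozygous N2 embryos with at least 10 votes, *Edn3* BAF was 0.518 ± 0.117 (SD, n = 45) where the mother was B6 and 0.392 ± 0.118 (n = 29) where she was F1 and had given the Cast allele. The difference of 0.13 passed the Mann-Whitney test (adjusted p = 0.00768), as did 1.19% of 4295 genes (0.605% in this direction), and *Sox10*, the other member with enough votes, had a difference of −0.00088 (adjusted p = 0.952). Of 12 litters of F1 mothers, 11 had a mean *Edn3* BAF below 0.5, and of 16 litters of B6 mothers, 8 were below and 8 above. The values were 0.521 and 0.391 in lanes A to I and 0.513 and 0.395 in lanes J to N. Without lanes J to N the difference was 0.13 (adjusted p = 0.0543, with 3.58% of genes called) and over means of litters 0.12 (adjusted p = 0.215, unadjusted p = 0.00125), so that at these smaller numbers it did not pass across genes.

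In both generations the allele from the mother thus made up a larger share of *Edn3* votes than the same allele did when it came from the father, and the pooled F1 BAF of 0.424 (0.409 to 0.439) was below 0.5. No F1 embryo had an *Edn3* BAF below 0.310 or above 0.560, so both alleles were read in every embryo. Set beside the levels, a BAF of 0.405 on the pooled votes of F1 mothers would correspond to a heterozygote higher by 0.30 (log2) than B6/B6, where 0.075 was measured, and a BAF of 0.512 for B6 mothers to −0.035, where 0.28 was measured. In B6/B6 embryos 2.33 of 1582.78 *Edn3* votes were for Cast, the background of the allele calls. *Edn3* BAF did not pass a test against somite number (Spearman's rho −0.21 over 42 embryos with at least 20 votes, adjusted p = 0.760), for which 0.299% of 3342 genes passed, nor did *Edn3* or *Sox10* pass for a difference in BAF between F1 and N2 (15.1% of 5233 genes called).

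**Figure D5:**
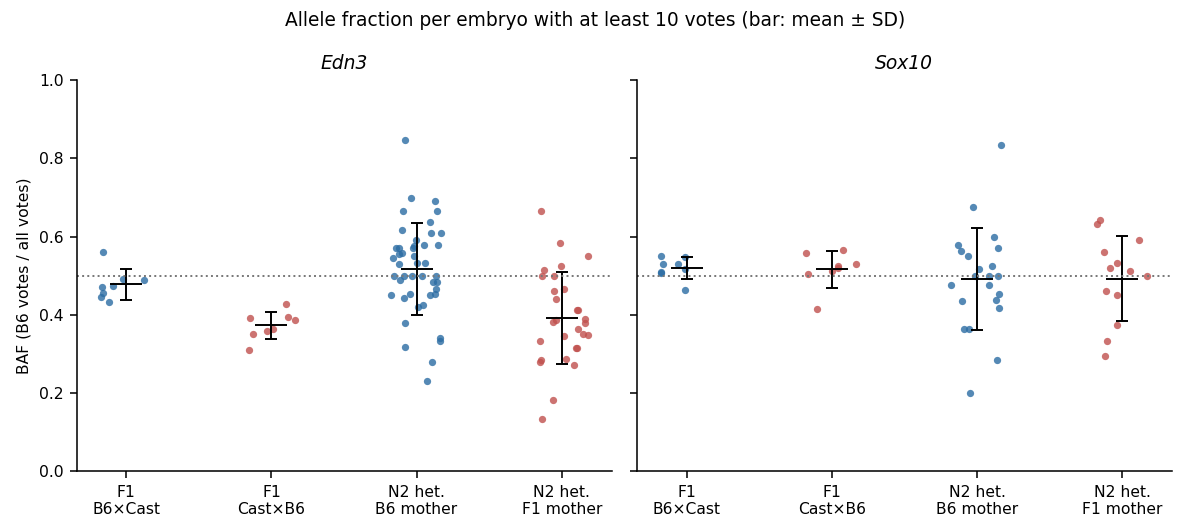
BAF (B6 votes over all votes, vertical axis) of *Edn3* and *Sox10* in embryos with at least 10 votes, by generation and cross, with 1 point per embryo, bars of mean ± SD and a dotted line at 0.5. *Edn3* is lower in Cast × B6 than in B6 × Cast (0.373 and 0.478) and lower with F1 than with B6 mothers in N2 (0.392 and 0.518), whereas *Sox10* is at 0.516 and 0.520 in F1 and at 0.493 and 0.492 in N2.

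The genes whose levels ran most like those of the members were found over the same 147 N2 embryos after lane, mother and somite number had been removed, and are given as a description, since the embryos share lanes and depth. For *Sox10* they were *Carm1* (rho 0.69), *Tmem201* (0.67) and *Sec24c* (0.66), and for *Edn3* *Uqcrc2* (0.43), *Kctd12b* (0.42) and *Ppp3ca* (0.41). For the receptor *Ednrb* they were *Rhobtb3* (0.58), *Osgin2* (0.56) and *Dpm1* (0.56), and for *Kit* *Rnf34* (0.51), *Skp1a* (0.45) and *Map4k3* (0.45). For *Foxd3* they were *Zfp740* (0.64), *Rab23* (0.57) and *Mcl1* (0.56), and for *Dct* *Rpp40* (0.42), *B3gntl1* (0.42) and *N4bp2l2* (0.41). Each of these rho values was higher in lanes J to N than in lanes A to I, for instance 0.81 against 0.35 for *Foxd3* and *Zfp740*. Among the members, *Ednrb* ran with *Kit* at rho 0.66 and with *Foxd3* at 0.62 in lanes J to N, but at −0.13 and −0.046 in lanes A to I.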

How the data were processed

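3SEQ of whole E11.5 embryos was used. Per the labels, reads were mapped with Bowtie2 to mm9. The authors deposited raw read counts on the exons of RefSeq genes, B6 and Cast votes as estimated counts that need not be whole, and genotype codes, which were read here as a score per gene and embryo (B6/B6, B6/Cast or not called). Both sequencing runs of an F1 embryo were 1 column. Of 168 N2 columns, 8 had labels naming no mother and 6 embryos had no genotypes, which left 154. Counts over total reads on genes gave RPM. Tests were fitted on every gene averaging 1 RPM or more: edgeR 4.0.16 (quasi-likelihood, TMM), DESeq2 1.42.0, limma 3.58.1 and scipy 1.17.1, on log2(RPM + 0.5) for the rank-sum test. Votes were rounded for binomial tests. PEER was replaced by 15 principal components in an alternative. Embryos of a litter are not independent, so p-values are approximate, and litter blocks were tried. Several of the models, among them the edgeR fits for stage, were also run on simulated data, but DESeq2 and limma voom were not. The members and lists were chosen with earlier results of these data known. Named genes are all members, the 2 genes of smallest p per pathway list (other called pathway genes are named too, and 1 gene is not reported here) and the 3 nearest genes per member. Coordinates are from GENCODE M1 (mm9). *Foxd3* overlaps an annotated microRNA on its strand, and reads of the 2 cannot be told apart.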

Additional observations from a re-analysis of the deposited data

Results flagged for a closer look

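Among 62 groups of 4 to 10 F1 embryos (by cross or litter, RPM or BAF), 6 held an embryo whose distance from the others passed Dixon's 95% limit, and chance gives about 1 such group in 20. *Ednrb* was at 6.33 RPM in Cast × B6 litter 2 embryo 3 (next value 4.10). Embryo 3 of B6 × Cast litter 5 was highest in *Kit* (7.91 RPM, next 5.90), in *Tyrp1* within its litter (0.0736 RPM from 2 reads, all others 0) and in *Edn3* BAF (0.560, next 0.491). *Tyr* was at 0.592 RPM in B6 × Cast litter 3 embryo 4 (next 0.352), on 19 reads. *Sox10* BAF was 0.414 in Cast × B6 litter 2 embryo 6 (next 0.504).

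Columns used in no comparison also held reads of the members. Of 8 N2 columns whose labels name no mother, 1 had more than 3 reads of a member, with *Edn3* at 14.0 RPM and *Sox10* at 24.8 RPM. Of 6 N2 embryos without genotypes, whose depth ran from 27 to 7612442 reads, at most 2 had more than 3 reads of a member, with *Edn3* up to 28.9 RPM and *Sox10* up to 23.4, and in a single embryo *Dct* at 2.76, *Ednrb* at 2.23, *Foxd3* at 1.71 and *Kit* at 0.525 RPM.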

How the results depend on the processing

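No paired analysis was possible because the labels give no replicate numbers, only embryo numbers within litters. The 2 members called for their own genotype kept direction throughout, *Sox10* between 0.14 and 0.51 and *Edn3* between 0.075 and 0.28 (log2), and fell short in embryos of F1 mothers (*Sox10* 0.22, adjusted p = 0.104), as *Sox10* did by the linear model without lanes J to N (0.16, adjusted p = 0.0532). Depth limits *Mitf*, *Tyr* and *Tyrp1* to counts, and lane, litter and mother overlap in N2. For changed counts and signs the cause was not tested, and every sign change below is of a value that passed no threshold.

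Numbers of genes called moved by more than 1.5 times in these settings. For somite number in N2 (1182 genes), 277 were called with litter by lane as a fixed factor, 605 in embryos of B6 mothers, 120 of F1 mothers, 328 in flowcell 2, 99 in lanes J to N, 2489 by Spearman's test without covariates and 230 by it over litter means. For its interaction with mother (1 gene), 3 were called with litter by lane, 7 without lanes J to N and 2 with total reads. For mother (495 genes), 3246 were called by edgeR with somite number, 3375 by the Benjamini-Hochberg method, 1293 without lanes J to N, 1 in lanes J to N, 22 in flowcell 2, 192 in flowcell 1 and 0 over litter or lane means, where none could pass. For own genotype (2926), 1598 were called in embryos of B6 mothers, 1696 of F1 mothers and 585 in lanes J to N, and its interaction with mother (3) gave 21 without lanes J to N and 1 at a mean of at least 5 RPM. ASE (1714) gave 934 over litter means, 2889 by Benjamini-Hochberg and 1085 in F1 alone. BAF by somite number (10) gave 63 with B6 mothers, 2 with F1 mothers, 4 without lanes J to N, 4 with lane and mother regressed out and 17 at 10 votes, and BAF by mother (51) gave 125 without lanes J to N and 17 over litter means. Leaving out each F1 embryo in turn gave 844 to 2608 genes for stage in B6 × Cast (2094) and 934 to 2411 between crosses (1849), while for stage in Cast × B6 it gave 3009 to 4741 (4250), within 1.5 times.

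Slopes with somite number that changed sign (log2 per somite) were, with litter by lane, *Edn3* −0.011 and *Kit* 0.018; with F1 mothers, *Ednrb* −0.077 and *Dct* −0.086; in flowcell 1, *Edn3* −0.0082, *Ednrb* −0.064 and *Dct* −0.0046; in flowcell 2, *Foxd3* −0.056; in lanes J to N, *Foxd3* −0.063; and without them, *Ednrb* −0.025 and *Kit* 0.037. As Spearman's rho they were *Kit* 0.039, *Sox10* 0.16 and *Foxd3* −0.025 without covariates, *Ednrb* −0.075, *Sox10* 0.29 and *Foxd3* −0.097 over litter means, and *Kit* 0.028 with lane and mother regressed out. Total reads turned the interaction of *Edn3* to 0.0024 and its B6 × Cast stage difference to 0.15, and without a filter the latter was 0.0026 and the cross difference of *Dct* 0.0021. Leaving out 1 embryo gave *Edn3* in B6 × Cast −0.048 to 0.043, and between crosses *Ednrb* −0.28 to 0.012, *Kit* −0.22 to 0.025 and *Dct* −0.10 to 0.093.

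Differences by mother that changed sign were *Edn3* 0.027, *Ednrb* 0.75 and *Kit* 0.60 in flowcell 2, *Ednrb* 0.042 and *Kit* 0.17 in flowcell 1, *Ednrb* 0.14 and *Kit* 0.14 in lanes J to N, *Kit* 0.027 without them, *Foxd3* −0.13 over litter means and *Kit* 0.033 over lane means. Differences by own genotype were, with litter by lane, *Kit* −0.0040, *Foxd3* −0.022 and *Dct* −0.026; with B6 mothers, *Ednrb* 0.18; with F1 mothers, *Kit* −0.23, *Foxd3* −0.25 and *Dct* −0.25; in lanes J to N, *Kit* −0.14 and *Dct* −0.014; without them, *Foxd3* −0.053; with voom weights, *Ednrb* 0.15, *Kit* −0.056 and *Dct* −0.059; without covariates, *Ednrb* 0.35; and with principal components, *Dct* −0.0089. BAF of *Dct* was 0.517 in F1 alone and that of *Sox10* 0.487 in N2 alone, the difference between F1 crosses per embryo was 0.0031 for *Sox10* and −0.0046 for *Foxd3*, and rho of *Edn3* BAF with somite number was 0.011 without lanes J to N and 0.14 with lane and mother regressed out.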

Other observations

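*Edn3* lies near an imprinted region, and its neighbours were looked up after its values had been seen. Of 15 other genes within 1 Mb in the tables, 8 had enough votes for the exact Mann-Whitney test between the F1 crosses and 1 was called. This was *Gnas*, a known imprinted gene (chromosome 2, 174109821-174172245 in mm9, 414 kb from *Edn3*), whose pooled BAF was 0.143 with B6 mothers and 0.914 with Cast mothers, so that the allele from the father prevailed in its votes, the other direction from *Edn3*. *Vapb*, 976 kb away, had 0.434 and 0.297 (adjusted p = 0.0807), and 0.327 and 0.266 in heterozygous N2 embryos of B6 and F1 mothers. *Npepl1* was at 0.486 and 0.463 in F1, and *Th1l*, 333 kb from *Edn3*, at 0.432 and 0.420. In N2, none of 5 other genes of this window with enough votes was called by the Mann-Whitney test (adjusted p from 0.0653 to 0.916), with *Atp5e* at 0.723 and 0.668 (adjusted p = 0.0653) but at 0.770 and 0.775 in F1.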
